A study of Mus musculus with 12 samples.

Results

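The genes described here encode carriers of amino acids and of the neurotransmitters made from them. They were taken as every protein-coding gene whose symbol begins with Slc1a, Slc3a, Slc6a, Slc7a, Slc36a, Slc38a or Slc43a in the GENCODE M21 annotation of the mouse genome. The annotation holds 64 such genes, and 38 of them had a row among the 18278 genes counted, 13518 of which were protein-coding. The remaining 26, among them Slc1a1, Slc1a3, Slc3a1, Slc6a14 and Slc7a9, were not analysed here. The 38 comprised 10 genes of Slc7a, 9 of Slc6a, 8 of Slc38a, 4 of Slc1a, 3 each of Slc36a and Slc43a, and 1 of Slc3a. Slc7a6os carries the Slc7a name because it lies next to Slc7a6 on the other strand, and is not itself a carrier. All 38 passed the filter on low counts.

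Amino acids cross the plasma membrane through carriers that differ in what drives them. Slc1a, Slc6a and system A members of Slc38a use the sodium gradient to concentrate their substrates, Slc7a light chains paired with the Slc3a2 heavy chain exchange amino acids already inside the cell for those outside, and the best known Slc36a carriers use protons. Exchangers such as Slc7a5 bring in leucine and other large neutral amino acids, which the lysosomal mTORC1 pathway senses, and starvation for amino acids raises many of these genes through the kinase Gcn2 (Eif2ak4) and the transcription factor Atf4. In mammary epithelium and in tumours these carriers supply glutamine, serine, cystine and essential amino acids for growth, whereas several Slc6a members are best known for clearing transmitters in the nervous system.

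RNA was sequenced from tumourspheres, floating colonies grown for 6 days from 10000 cells per mL in serum-free medium with B27, EGF and basic FGF at 20 ng per mL each. LM1 and LM9 are 2 cell lines, each grown out from a lung metastasis in an immunodeficient NOD/SCID mouse that carried PIK3CA-mutant mammary tumour cells (HR1) mutagenised with a piggyBac transposon. The LM1 Nfib KO and LM9 Nfib KO groups, called LM1KO and LM9KO below as labels only, were pools of single-cell clones of the same lines after CRISPR-Cas9 targeting of Nfib, which encodes the transcription factor nuclear factor IB. Each of the 4 groups had 3 libraries, numbered 1 to 3. By the labels and the study's methods every group, the KO-labelled ones included, derives from the mutagenised PIK3CA-mutant cells, which the counts used here do not test. The study asked what changes when Nfib is removed, so LM1KO was compared with LM1 and LM9KO with LM9. The sources do not say that the 3 libraries of a group came from separate cultures, and p-values then measure only the spread between them, which may be technical.

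Several features of the libraries bear on every result below. Total counts lay between 29249075 and 37162594 per library. Nfib itself had 5519 to 7069 reads in LM1 and 8642 to 9475 in LM1KO, and 2969 to 6233 in LM9 and 8760 to 10155 in LM9KO, so its reads were not fewer in the libraries labelled KO. The guide was designed to shift the reading frame, a change that a read count does not test. LM9 replicate 1 stood with LM1. Across the 38 genes, on the log2 scale, its r was 0.9993 to 0.9994 to the LM1 libraries and 0.9577 and 0.9651 to LM9 replicates 2 and 3. A chi-square of its counts against LM1 replicate 1, averaged over all genes, was 2.12, less than between any pair of LM1 replicates (at least 4.85) and more than the value of about 1 that sampling noise alone gives. For the 38 members, values in LM9KO without it are given beside the main ones where it changed a call or a sign, and for some further members whose replicate 1 lay apart. Libraries labelled LM1KO and LM9KO were as alike as replicates, with r of 0.999 to 0.9996 between the groups and 0.9991 to 0.9995 within LM1KO, whereas r between LM1 and LM1KO was 0.6652 to 0.6749. Genes are not independent replicates, so these values are descriptions.

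The markers of the labelled tissue moved together with the groups. Of 10 mammary luminal markers counted, 9 were lower and 1 (Esr1) was higher in both lines. Their summed level ran from 919.5 to 1753 CPM, the count scaled to library size with trimmed mean of M-values (TMM) factors, in the 6 parental libraries and from 34.0 to 34.9 in the 6 KO-labelled ones, in which Cldn3 had 0 counts. All 4 kidney tubule markers counted were higher in both lines, their sum running from 0.434 to 1.06 CPM in the parental libraries and from 987 to 1118 in the KO-labelled ones, almost all of it Aqp2, and 1 of the 4 had 0 counts in every parental library. Endothelial markers (3 of 4 higher in both lines) summed to 0.573 to 2.64 CPM in parental and 369 to 377 in KO-labelled libraries. Mesenchymal markers (7 of 8 higher in LM1KO and 6 of 8 in LM9KO) summed to 3251 to 5717 and 6478 to 6732 CPM, 1 of them with 0 counts in every parental library. The basal list (2 of 3 higher in both lines), the single immune marker (Cd68, lower in both), the neuronal list (2 of 5 higher in both, 3 lower in LM1KO and 2 in LM9KO) and the glial list (1 of 3 higher and 1 lower in both) summed to 6.78 to 7.63, 95.7 to 104, 29.8 to 33.1 and 0.416 to 0.876 CPM in the KO-labelled libraries, against 0.443 to 19.1, 450.1 to 554, 85.7 to 128 and 43.2 to 51.6 in the parental ones. From 8 kidney tubule and 6 endothelial symbols listed, 4 and 4 were in the files. The files held only genes with at least 8 counts in their third-highest library. A marker near 0 in every parental library could thus only be counted as higher. The levels of the luminal, kidney tubule and endothelial markers, rather than these counts, go against the labelled mammary origin of the KO-labelled libraries. Every KO contrast below therefore compares libraries by label. The part of these shifts in the carrier results was not tested, and in bulk libraries fewer cells of a type and less RNA per cell cannot be told apart.

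Most carrier genes were higher in the KO-labelled libraries of both lines. By limma-voom at an adjusted p under 0.05, 25 of the 38 (65.8%) were higher and 9 (23.7%) lower in LM1KO than in LM1. The corresponding shares of all 18176 genes tested were 43.1% and 38.1%. In LM9KO against LM9, 24 (63.2%) were higher and 8 (21.1%) lower, against 44.3% and 38.0% of all genes. The same 24 members were higher in both lines and the same 7 lower in both (39.6% and 33.5% of all genes), and none was called in opposite directions. The median log2 fold change of the members was 0.96 in LM1KO and 1.45 in LM9KO, next to 0.084 and 0.13 for all genes tested. An absolute log2 fold change above 1 with an adjusted p under 0.05 was met by 25 members in LM1KO and 26 in LM9KO, against 55.0% and 57.5% of all genes. The 3 libraries of a group did not overlap with those of the other for 25 members higher and 12 lower in LM1KO (46.8% and 42.3% of all genes) and for 24 higher and 8 lower in LM9KO (43.4% and 37.1%). No difference between the members and all genes was tested, and the counts depend in part on how genes entered the files. All genes in them had at least 8 counts in their third-highest library. For 10 of the 38 no parental library reached 8 counts (Slc1a7, Slc38a4, Slc43a1, Slc6a4, Slc6a7, Slc6a12, Slc6a17, Slc6a19, Slc7a3 and Slc7a8), so they could enter through the KO-labelled libraries alone and had to be higher there. Slc43a3 entered through the parental libraries alone. Of the other 27 members, 15 were higher and 8 lower in LM1KO, and 14 and 7 in LM9KO. The same split is not given for all genes, so these counts have no share to be read against.

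**Figure D1:**
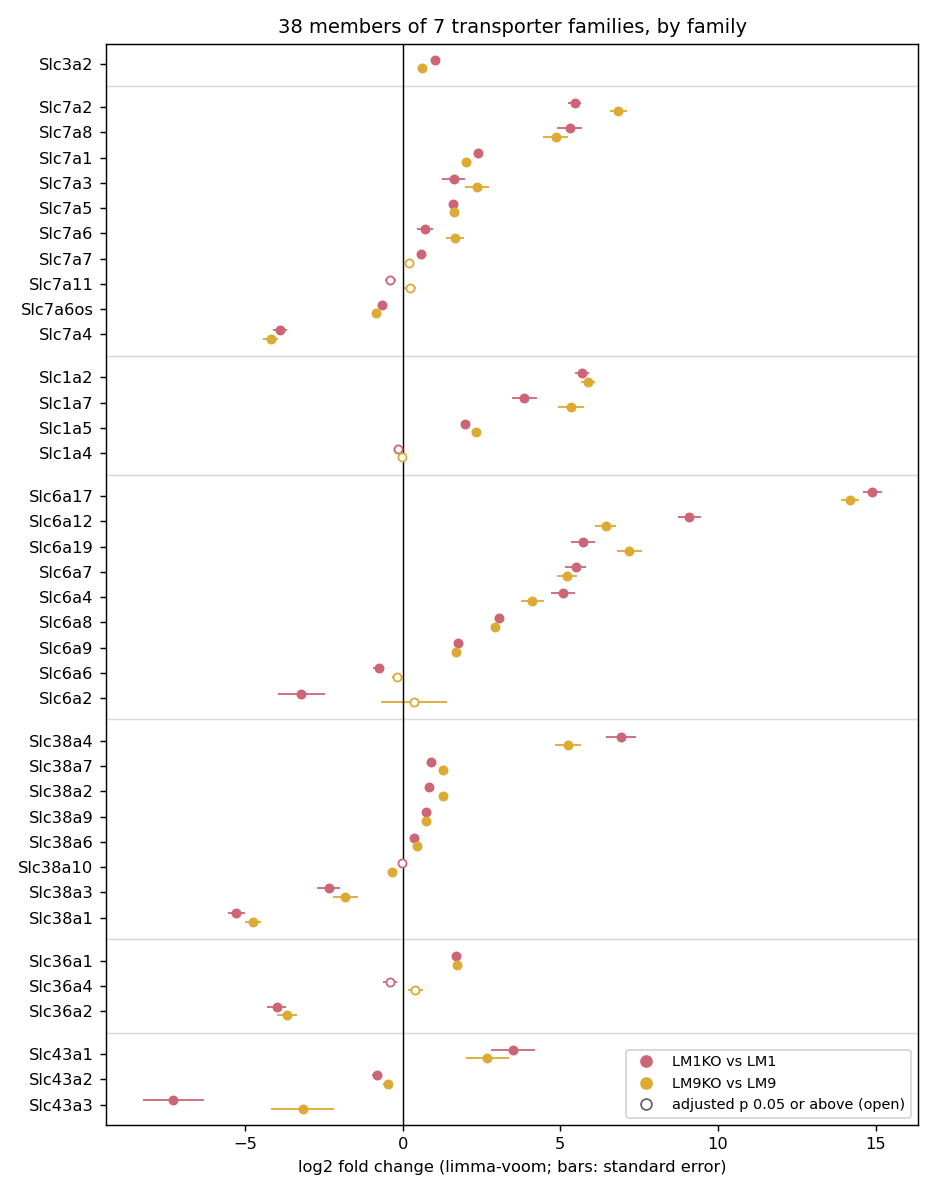
Each point is the log2 fold change of 1 gene on the x axis in LM1KO against LM1 (red) or LM9KO against LM9 (yellow), with its standard error as a bar, grouped by family down the y axis. Open points did not pass an adjusted p of 0.05. The widest rise is Slc6a17, whose fitted values of 14.90 and 14.18 depend on the offset because its parental counts were 0 or 1. Slc6a2 has the widest bar in LM9KO.

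The heavy chain came first in level. Slc3a2 (chr19:8706882-8723369, minus strand, GRCm38), the 4F2 heavy chain that carries the Slc7a light chains to the membrane, had CPM of 336, 311 and 323 in LM1 and 654, 649.8 and 663 in LM1KO. It stood at 333, 486 and 478 in LM9 and 652, 641 and 645 in LM9KO. KO-labelled libraries lay above all parental ones in both lines, and its log2 fold change was 1.02 ± 0.12 in LM1KO and 0.60 ± 0.12 in LM9KO (SE; adjusted p = 7.29e-06 and 5.31e-04). The LM9KO value without LM9 replicate 1 was 0.43 ± 0.031. Per kilobase of exon, the scale on which genes can be compared, Slc3a2 was the highest of the 38 in all 4 groups, at 91.6 CPM per kb in LM1 and 186 in LM1KO.

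Among the 5 light chains that pair with Slc3a2, 4 rose in LM1KO and 3 in LM9KO, and none fell. For all genes tested the shares were 43.1% higher and 38.1% lower in LM1KO, and 44.3% and 38.0% in LM9KO. Slc7a8 could enter the files through the KO-labelled libraries alone and had to be higher there. Slc7a5 (LAT1, chr8:121881150-121907694, minus strand), the exchanger of leucine and other large neutral amino acids, had CPM of 91.7, 87.8 and 88.4 in LM1, 275, 267 and 273 in LM1KO, 88.3, 80.9 and 89.3 in LM9 and 262, 259 and 271 in LM9KO. Its 3 LM9 libraries did not stand apart from LM1, and its log2 fold change was 1.60 ± 0.054 in LM1KO and 1.62 ± 0.054 in LM9KO (SE; adjusted p = 2.03e-10 and 2.05e-10). Slc7a6 (y+LAT2), which exports arginine in exchange for glutamine, had 32.3, 32.3 and 32.1 in LM1 and 52.7, 53.8 and 50.8 in LM1KO. In LM9 it had 33.1, 11.1 and 11.2, so replicate 1 was level with LM1 and the other libraries lay far below it, and in LM9KO it had 52.3, 51.0 and 52.8. The log2 fold change of Slc7a6 was 0.70 ± 0.26 in LM1KO and 1.66 ± 0.29 in LM9KO (SE; adjusted p = 0.0251 and 2.10e-04), and in LM1KO edgeR's quasi-likelihood test gave an adjusted p of 0.064. Slc7a6 stood at 2.22 ± 0.067 in LM9KO without LM9 replicate 1. Slc7a8 (LAT2) was 0 in every LM1 library and 0.805, 0.627 and 0.555 CPM in LM1KO, at least 6.48-fold higher against a floor of 3 counts per library. In LM9 it had 1 read in total, against 0.70, 0.754 and 0.884 CPM in LM9KO.

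Of the other light chains, Slc7a7 passed the test in LM1KO and not in LM9KO, and Slc7a11 passed it in neither line. Slc7a7 (y+LAT1, the epithelial counterpart of Slc7a6) had CPM of 17.2, 14.5 and 13.9 in LM1 and 22.1, 22.7 and 23.5 in LM1KO, and 16.1, 21 and 22.1 in LM9 and 22.5, 21.5 and 22.8 in LM9KO, with log2 fold changes of 0.59 ± 0.12 (SE, adjusted p = 6.13e-04) and 0.19 ± 0.11 (SE, adjusted p = 0.137). Some of its exon bases lie opposite exons of Oxa1l, and since the strand setting of the counting is not given in the sources used here, reads of antisense neighbours could not be separated. Slc7a11 (xCT, which brings in cystine for glutathione in exchange for glutamate) had 82.5, 89.6 and 94.8 in LM1, 68.8, 70.2 and 65.2 in LM1KO, 85.4, 45.1 and 51.6 in LM9 and 63.0, 73.8 and 71.2 in LM9KO. Every LM1KO library was below every LM1 library, while LM9 replicates 2 and 3 were below LM9KO and replicate 1 above it. Its log2 fold changes were -0.38 ± 0.18 (SE, adjusted p = 0.0622) and 0.24 ± 0.18 (SE, adjusted p = 0.242). Without LM9 replicate 1 the same fits gave -0.38 ± 0.061 (SE, adjusted p = 1.81e-05) and 0.52 ± 0.077 (SE, adjusted p = 6.85e-06), past the threshold with opposite signs.

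Heavy and light chains did not keep the same proportion. The Slc3a2 level per kb divided by the summed level per kb of the 5 light chains was 2.12 to 2.22 in LM1, 1.91 to 1.94 in LM1KO and 1.89 to 1.97 in LM9KO. In LM9 it was 2.24 in replicate 1, 4.07 in replicate 2 and 3.67 in replicate 3. Both parental lines were above both KO-labelled groups without overlap, and an exact permutation test on 3 against 3 libraries cannot go below p = 0.1.

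Promoter sequence is shown for 4 members because in these windows 3 members held the amino acid response element core and the fourth had the widest change. RefSeq windows (GRCm38.p6) from 250 bases before to 50 after a start site were found for 25 of the 38 members, 41 windows in all. They were searched on both strands for TGATGNAA, the core at which Atf4 and its partners bind, for TTGGC, the recognition motif of nuclear factor I proteins, and for the full NFI palindrome (TTGGC, 5 bases of any kind, then GCCAA), each match to which also holds TTGGC. TGATGNAA occurred in 4 of 41 member windows (9.76%) and in 3.97% of all 32851 windows. TTGGC occurred in 20 of 41 (48.8%) and 46.7%, and the NFI palindrome in 0 of 41 and 0.0365%. In the first 3 windows capitals mark TGATGNAA on either strand, in the last TTGGC, and all are written 5′ to 3′ on the gene's strand.
Slc7a11, chr3:50443564-50443863, minus strand: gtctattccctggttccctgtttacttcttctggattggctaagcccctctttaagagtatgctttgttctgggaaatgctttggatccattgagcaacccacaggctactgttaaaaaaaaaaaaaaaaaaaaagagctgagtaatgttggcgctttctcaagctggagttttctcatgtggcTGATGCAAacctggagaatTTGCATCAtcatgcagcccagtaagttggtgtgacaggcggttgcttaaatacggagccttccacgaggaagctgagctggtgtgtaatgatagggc
Slc1a4, chr11:20332664-20332963, minus strand: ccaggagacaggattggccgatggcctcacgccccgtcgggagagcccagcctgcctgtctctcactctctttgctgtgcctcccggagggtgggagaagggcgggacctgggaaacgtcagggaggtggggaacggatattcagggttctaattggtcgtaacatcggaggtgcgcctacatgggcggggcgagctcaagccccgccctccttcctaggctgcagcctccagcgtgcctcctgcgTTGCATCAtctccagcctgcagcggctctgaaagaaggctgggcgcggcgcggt
Slc7a7, chr14:54417895-54418194, minus strand: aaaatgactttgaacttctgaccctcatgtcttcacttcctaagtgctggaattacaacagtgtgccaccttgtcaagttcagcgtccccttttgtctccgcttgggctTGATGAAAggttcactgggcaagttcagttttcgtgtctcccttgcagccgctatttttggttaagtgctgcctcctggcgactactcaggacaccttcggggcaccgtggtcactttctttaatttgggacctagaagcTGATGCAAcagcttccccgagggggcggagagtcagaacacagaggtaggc
Slc6a17, chr3:107517969-107518268, minus strand: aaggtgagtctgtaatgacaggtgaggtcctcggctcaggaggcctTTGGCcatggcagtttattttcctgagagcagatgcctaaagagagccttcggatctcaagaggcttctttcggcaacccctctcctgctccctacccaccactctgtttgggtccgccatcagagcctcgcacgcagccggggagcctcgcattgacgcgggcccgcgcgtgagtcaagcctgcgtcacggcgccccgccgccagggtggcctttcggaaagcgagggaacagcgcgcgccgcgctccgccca
The Slc7a11 window holds the core as a facing pair whose first bases lie at -66 and -47 from the start. Slc1a4 has it at -4 and this Slc7a7 window at -141 and -1, the latter also lying in a second, overlapping Slc7a7 window. Of these 3, neither Slc7a11 nor Slc1a4 passed the test in either line with all libraries, and Slc7a7 passed it in LM1KO. A match describes the letters only and says nothing of binding.

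Of the 10 Slc7a genes, 7 rose and 2 fell in LM1KO, and 6 rose and 2 fell in LM9KO. The shares of all genes tested were 43.1% higher and 38.1% lower in LM1KO, and 44.3% and 38.0% in LM9KO. Slc7a3 and Slc7a8 could enter the files through the KO-labelled libraries alone and had to be higher there. The cationic amino acid transporters Slc7a1, Slc7a2 and Slc7a3 rose in both lines. Slc7a1 (CAT1, chr5:148327410-148399904, minus strand), the widespread importer of arginine and lysine, had CPM of 63.4, 58.7 and 62.7 in LM1, 326, 321 and 329 in LM1KO, 61.4, 84.7 and 95.6 in LM9 and 319, 322 and 324 in LM9KO. KO-labelled libraries were higher throughout, and the log2 fold change was 2.40 ± 0.12 in LM1KO and 2.03 ± 0.12 in LM9KO (SE; adjusted p = 5.73e-09 and 2.28e-08). Slc7a2 (CAT2, chr8:40862396-40922308, plus strand), an arginine importer of liver, muscle and activated macrophages, went from 3.15, 3.03 and 2.78 in LM1 to 134, 134 and 129.6 in LM1KO. In LM9 it was at 2.39, 0.927 and 0.669 and in LM9KO at 132, 137 and 140.1. Its log2 fold change of 5.46 ± 0.20 in LM1KO and 6.84 ± 0.27 in LM9KO (SE; adjusted p = 4.34e-10 and 8.16e-10) was the largest rise in the Slc7a family among members at 5 CPM or more, and without LM9 replicate 1 the LM9KO value was 7.41 ± 0.23. Slc7a3 (CAT3) rose from group means of 0.179 and 0.148 CPM to 0.587 and 0.727. Slc7a4, a relative with no established transport activity, fell by 3.89 and 4.18 on the log2 scale, from 4.22, 3.98 and 5.02 CPM in LM1 to 0.252, 0.287 and 0.317 in LM1KO. About 13.3% of the exon bases of Slc7a4 lie opposite exons of P2rx6. Slc7a6os, the non-carrier, fell by 0.66 and 0.85.

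In the Slc1a family 3 of 4 genes rose in both lines and none fell, where 39.6% of all genes tested rose and 33.5% fell in both. Slc1a7 could enter the files through the KO-labelled libraries alone and had to be higher there. Slc1a5 (ASCT2, chr7:16781340-16798274, plus strand), a sodium-dependent exchanger through which many tumour cells take up glutamine, had CPM of 43.1, 41.1 and 40.9 in LM1, 162, 161 and 168 in LM1KO, 39.1, 27.1 and 30.7 in LM9 and 162, 161 and 162 in LM9KO. The log2 fold change was 1.97 ± 0.10 in LM1KO and 2.33 ± 0.10 in LM9KO (SE; adjusted p = 4.01e-09 and 1.39e-09). Its close relative Slc1a4 (ASCT1), which exchanges serine, alanine and cysteine, stood at 53.8, 48.8 and 47.9 in LM1, 44.8, 44.3 and 45.4 in LM1KO, 53.4, 40.6 and 37.4 in LM9 and 42.9, 41.7 and 43.7 in LM9KO. Its log2 fold changes were -0.16 ± 0.11 (SE, adjusted p = 0.187) and -0.023 ± 0.11 (SE, adjusted p = 0.848), and both were positive when libraries were scaled by total counts. Without LM9 replicate 1, whose spread enters the shared error, they were -0.16 ± 0.047 (SE, adjusted p = 0.00496) and 0.14 ± 0.057 (SE, adjusted p = 0.0314). The glutamate carriers Slc1a2 (EAAT2, chr2:102658659-102790784, plus strand), which clears glutamate around synapses, and Slc1a7 (EAAT5) rose from near 0. Slc1a2 had 0.248, 0.460 and 0.470 CPM in LM1 and 20.4, 20.5 and 20.8 in LM1KO, 0.337, 0.322 and 0.354 in LM9 and 18.9, 22.4 and 21.9 in LM9KO, a log2 fold change of 5.70 ± 0.22 in LM1KO and 5.88 ± 0.23 in LM9KO (SE; adjusted p = 6.57e-10 and 7.52e-10). Slc1a7 had at most 2 reads in a parental library and 1.26, 1.10 and 1.32 CPM in LM1KO, a ratio of pooled counts of 18.1 (95% exact interval 8.10 to 50.1, counting error only).

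The Slc6a family held the widest rise. Of its 9 genes 7 rose in both lines, 2 fell in LM1KO and none fell in LM9KO. Among all genes tested, 39.6% were higher in both lines, 38.1% lower in LM1KO and 38.0% lower in LM9KO. Slc6a4, Slc6a7, Slc6a12, Slc6a17 and Slc6a19 could enter the files through the KO-labelled libraries alone and had to be higher there. Slc6a17 (NTT4, chr3:107467543-107518018, minus strand), a carrier of neutral amino acids on synaptic vesicles, was 0 in every LM1 library and had 1 read in total in LM9. In LM1KO it reached CPM of 526, 507 and 521 and in LM9KO 502, 503 and 511, which makes it at least 5067-fold higher in LM1KO than in LM1 against a floor of 3 counts per library. Slc6a12 (BGT1), a carrier of betaine and GABA known from kidney and liver, was 0 in LM1 and at most 3 reads in LM9, and had 9.59, 9.51 and 8.77 CPM in LM1KO and 9.02, 7.44 and 9.04 in LM9KO, at least 90.9-fold higher in LM1KO. Slc6a19 (B0AT1), the neutral amino acid carrier of the kidney and gut brush border, rose from group means of 0.0749 and 0.0112 CPM to 4.17 and 3.96.

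Slc6a8 (chrX:73673150-73682502, plus strand), the creatine transporter, had CPM of 69.3, 67.9 and 66.0 in LM1, 572, 548 and 563 in LM1KO, 67.6, 72.7 and 73.1 in LM9 and 537, 542 and 559 in LM9KO. The log2 fold change was 3.05 ± 0.052 in LM1KO and 2.94 ± 0.053 in LM9KO (SE; adjusted p = 3.51e-12 and 4.85e-12). Per kb of exon it moved from rank 6 of 38 in both parental groups to rank 2 in both KO-labelled groups. Slc6a9 (GlyT1), the glycine transporter, had 29.9, 29.6 and 31.7 in LM1 and 107, 101 and 103 in LM1KO, 29.8, 32.2 and 34.2 in LM9 and 101, 104 and 107 in LM9KO, and changed by 1.77 ± 0.064 in LM1KO and 1.70 ± 0.065 in LM9KO (SE; adjusted p = 3.97e-10 and 5.77e-10). About 30.2% of its exon bases lie opposite exons of B4galt2, Ccdc24 and Gm17114, so its level is uncertain. Slc6a4 (the serotonin transporter) and Slc6a7 (the brain proline transporter) rose in both lines and stayed under 1 CPM.

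The 2 Slc6a members that fell in LM1KO were Slc6a6 and Slc6a2, and neither passed the test in LM9KO. Slc6a6 (TauT, chr6:91684053-91759066, plus strand), which takes up the osmolyte taurine, had 348, 352 and 362 CPM in LM1, 209.8, 209 and 212 in LM1KO, 348, 189 and 197 in LM9 and 207, 210.1 and 211 in LM9KO. Its log2 fold changes were -0.75 ± 0.18 (SE, adjusted p = 0.00193) and -0.17 ± 0.18 (SE, adjusted p = 0.386), the latter positive with total-count scaling. LM9 replicates 2 and 3 lay below all 6 KO-labelled libraries, whereas replicate 1 lay with LM1. Slc6a2 (the noradrenaline transporter, chr8:92960079-93001667, plus strand) showed the same layout on a wider scale, with 23.5, 24.8 and 23.0 in LM1, 2.34, 2.87 and 2.51 in LM1KO, 22.5, 0.282 and 0.827 in LM9 and 2.44, 2.58 and 2.50 in LM9KO. Its log2 fold changes were -3.21 ± 0.74 (SE, adjusted p = 0.00173) and 0.35 ± 1.04 (SE, adjusted p = 0.761), and the latter was -1.67 in edgeR's quasi-likelihood fit. Without LM9 replicate 1 the LM9KO value was 2.31 ± 0.34 (SE, adjusted p = 5.59e-06), and that of Slc6a6 was 0.12 ± 0.033 (SE, adjusted p = 0.00305).

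**Figure D2:**
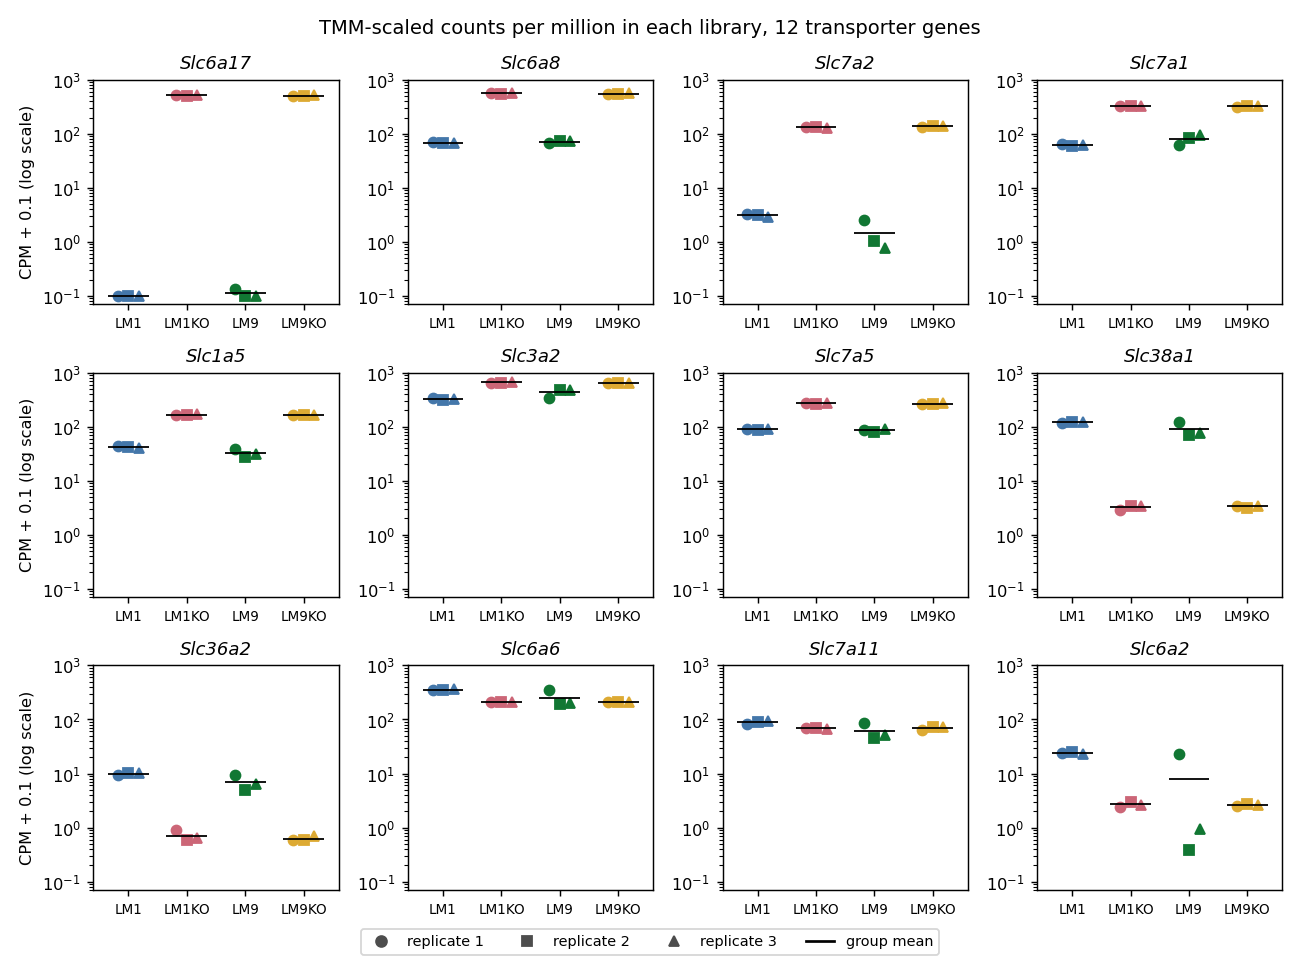
Each panel shows 1 gene, with the 4 groups on the x axis and the TMM-scaled CPM plus 0.1 of each library on a log y axis. Circles, squares and triangles are replicates 1, 2 and 3, and black lines are group means. In every panel both KO-labelled groups lie on the same side of LM1, and in the panels of Slc6a6, Slc7a11 and Slc6a2 the LM9 circle lies with LM1 and apart from the other LM9 points.

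Of the 8 Slc38a genes 5 rose in both lines, 2 fell in LM1KO and 3 fell in LM9KO. The shares of all genes tested were 39.6% higher in both lines, 38.1% lower in LM1KO and 38.0% lower in LM9KO. Slc38a4 could enter the files through the KO-labelled libraries alone and had to be higher there. Among the 3 system A carriers, which take up glutamine, alanine and serine with sodium, Slc38a1 and Slc38a2 went opposite ways. Slc38a1 (SNAT1, chr15:96571418-96642913, minus strand) had CPM of 116, 122 and 119.5 in LM1, 2.74, 3.24 and 3.28 in LM1KO, 123, 70.1 and 75.2 in LM9 and 3.32, 3.07 and 3.33 in LM9KO. It changed by -5.27 ± 0.26 in LM1KO and -4.74 ± 0.26 in LM9KO (SE; adjusted p = 4.77e-09 and 1.09e-08), the largest fall of its family. Slc38a2 (SNAT2, chr15:96687392-96699730, minus strand), the form known to rise under amino acid shortage and hypertonicity, had 259, 273 and 265 in LM1, 489, 475 and 452 in LM1KO, 256, 182 and 181 in LM9 and 467, 508 and 498 in LM9KO. It changed by 0.83 ± 0.11 in LM1KO and 1.27 ± 0.11 in LM9KO (SE; adjusted p = 2.82e-05 and 7.25e-07). These 2 genes are neighbours on the same strand of chromosome 15. Slc38a4 (SNAT4), typical of liver and placenta, had at most 6 reads in a parental library and 4.20, 3.76 and 5.05 CPM in LM1KO and 4.38, 4.82 and 4.68 in LM9KO.

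Slc38a7 (SNAT7, chr8:95835920-95853539, minus strand), which exports glutamine from lysosomes, had 20.3, 21 and 21.1 CPM in LM1 and 40.1, 37.9 and 38.9 in LM1KO, and 20.5, 12.1 and 14.1 in LM9 and 37.3, 37.9 and 37.3 in LM9KO, a change of 0.91 ± 0.13 in LM1KO and 1.29 ± 0.14 in LM9KO (SE; adjusted p = 3.94e-05 and 3.29e-06). Slc38a9, the lysosomal carrier that reports arginine to mTORC1, rose by 0.73 ± 0.12 in LM1KO and 0.74 ± 0.12 in LM9KO (SE; adjusted p = 1.18e-04 and 1.21e-04). Slc38a6 rose by 0.38 and 0.46 on the log2 scale. Slc38a3 (SNAT3), the system N glutamine carrier of liver, kidney and astrocytes, was under 1 CPM in every library and fell by 2.35 and 1.81. Slc38a10, the third highest member per kb in LM1, did not pass the test in LM1KO at -0.016 ± 0.11 (SE, adjusted p = 0.894) and was lower in LM9KO at -0.32 ± 0.11 (SE, adjusted p = 0.0145). When scaled by total counts Slc38a10 had positive values in both lines, and without LM9 replicate 2 or 3 its adjusted p in LM9KO was 0.052 and 0.067.

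Of the 3 Slc36a carriers, 1 rose and 1 fell in both lines, where 39.6% of all genes tested rose and 33.5% fell in both. Slc36a1 (PAT1, chr11:55204350-55236330, plus strand), which releases small amino acids from lysosomes and acts on mTORC1, had 18.5, 18.1 and 17.5 CPM in LM1, 59.8, 55.3 and 58.1 in LM1KO, 18.7, 15 and 16.1 in LM9 and 53.1, 52.7 and 58.0 in LM9KO. It changed by 1.68 ± 0.082 in LM1KO and 1.72 ± 0.084 in LM9KO (SE; adjusted p = 3.97e-09 and 4.43e-09). Its neighbour on the other strand, Slc36a2 (PAT2, chr11:55158470-55185077, minus strand), a glycine and proline carrier, had 9.18, 9.99 and 9.94 CPM in LM1 and 0.805, 0.496 and 0.528 in LM1KO. It had 9.34, 4.96 and 6.38 in LM9 and 0.493, 0.487 and 0.598 in LM9KO, so the groups did not overlap in either line. It changed by -3.99 ± 0.29 in LM1KO and -3.66 ± 0.31 in LM9KO (SE; adjusted p = 1.42e-07 and 4.83e-07). Slc36a4 (PAT4) passed the test in neither line, at -0.39 ± 0.22 (SE, adjusted p = 0.124) and 0.41 ± 0.25 (SE, adjusted p = 0.148), and without LM9 replicate 1 its values were -0.38 ± 0.082 (SE, adjusted p = 3.13e-04) and 0.83 ± 0.13 (SE, adjusted p = 1.08e-05).

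Of the Slc43a uniporters, which let large neutral amino acids equilibrate without exchange, Slc43a2 fell, Slc43a1 rose from near 0, and Slc43a3, which carries purine nucleobases, fell to near 0. Slc43a2 (LAT4, chr11:75531694-75577575, plus strand) had 51.2, 49.5 and 48.4 CPM in LM1, 27.7, 27.7 and 28.9 in LM1KO, 52.2, 30.2 and 34.2 in LM9 and 29.0, 26.0 and 27.1 in LM9KO. It changed by -0.82 ± 0.15 in LM1KO and -0.48 ± 0.16 in LM9KO (SE; adjusted p = 3.65e-04 and 0.0146). LM9 replicate 1 was the highest of its group, and without it the LM9KO value was -0.23 ± 0.062 (SE, adjusted p = 0.00238). In LM9KO the adjusted p of Slc43a2 was 0.59 with total-count scaling. Slc43a1 (LAT3) had at most 4 reads in a parental library and 18 in a KO-labelled one. Slc43a3 had 1.84, 2.02 and 2.10 CPM in LM1 and 0 in each LM1KO library, and 2.50, 0.363 and 0.118 in LM9 with at most 3 reads in an LM9KO library.

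Summed over all 38 members, the level per kb of exon was 329 ± 6.70 CPM per kb (SD, n = 3) in LM1 and 708 ± 8.23 in LM1KO. In LM9 it was 335 ± 6.02 and in LM9KO 699 ± 7.18. The sum was thus alike in the 3 LM9 libraries although single members were not. Slc6a made up the largest part of the increase in LM1, from 64.6 ± 0.680 to 208 ± 3.95, followed by Slc3a2, from 91.6 ± 3.51 to 186 ± 1.91, and Slc7a, from 54.6 ± 1.11 to 143 ± 1.08. In the LM9 line Slc6a was again largest, from 50.2 ± 11.6 to 203 ± 3.52. There Slc7a, from 51.9 ± 3.15 to 141 ± 2.69, came before Slc3a2, from 122 ± 24.4 to 183 ± 1.51. Between LM1 and LM1KO, Slc38a went from 82.4 ± 1.65 to 104 ± 1.67 and Slc43a from 5.40 ± 0.109 to 2.86 ± 0.0668. Within the sum, Slc3a2 took 27.8% in LM1 and 26.2% in LM1KO, Slc6a8 3.95% and 15.2%, and Slc6a17 0% and 7.11%. Slc6a6 went from 12.7% to 3.51% and Slc38a10 from 11.9% to 5.47%.

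**Figure D3:**
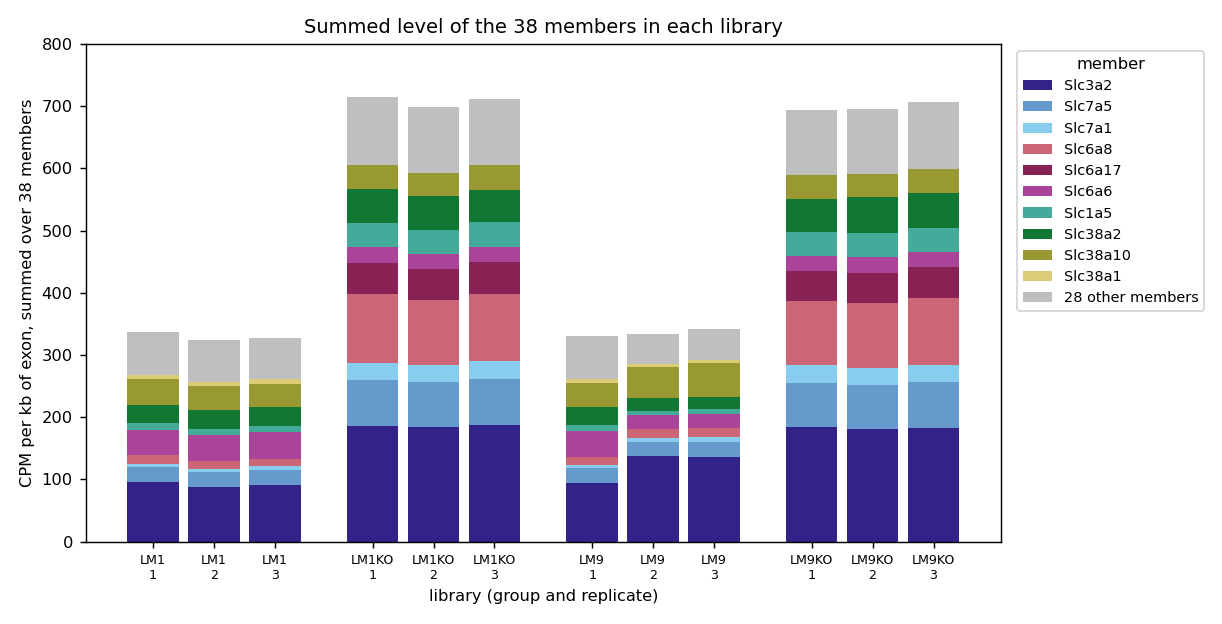
Each bar is 1 library on the x axis, and its height is the level per kb of exon summed over the 38 members, in CPM per kb. Colours are the 10 members drawn by name and grey the other 28. The 6 parental bars stand between 324 and 342 and the 6 KO-labelled bars between 694 and 714, with the largest added blocks from Slc3a2, Slc6a8, Slc7a5 and Slc6a17.

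Parental and KO-labelled lines were also compared with each other. LM1 and LM9 differed in none of the 38 by limma-voom, and in 1 of all genes tested (0.00550%). At an unadjusted p under 0.05 there were 22 members, and 8661 of all 18176 genes tested. DESeq2 called 8 members higher and 5 lower in LM1, and edgeR's quasi-likelihood test called 0. The shares of all genes are not given for these 2 tools. For 18 of the 22 the adjusted p was between 0.05 and 0.06. Without LM9 replicate 1, 18 members were higher and 7 lower in LM1 than in LM9 (33.4% and 32.4% of all genes). Among members above 5 CPM in a parental group, Slc6a2 differed most, with a log2 difference of LM1 over LM9 of 5.55 ± 0.32 (SE, adjusted p = 1.50e-10), followed by Slc7a6 at 1.53 ± 0.069 (SE, adjusted p = 7.72e-12). The arginine importer Slc7a2 (1.90 ± 0.25), Slc7a11 (0.88 ± 0.077) and Slc6a6 (0.87 ± 0.033) were also higher in LM1 in that fit. Slc3a2 (-0.58 ± 0.033) and Slc7a1 (-0.55 ± 0.051) were lower in LM1. Of the light chains, Slc7a7 was lower in LM1 as Slc3a2 was (-0.51 ± 0.081), Slc7a6 and Slc7a11 were higher, and Slc7a5 (0.071 ± 0.047) and Slc7a8 (-1.02 ± 0.70, under 1 CPM) did not pass the test. Between LM1KO and LM9KO, limma-voom called none of the 38 (0% of all genes), and their lowest adjusted p was 0.9999. None of the 38 had an unadjusted p under 0.05, against 178 of all 18176 genes tested.

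**Figure D4:**
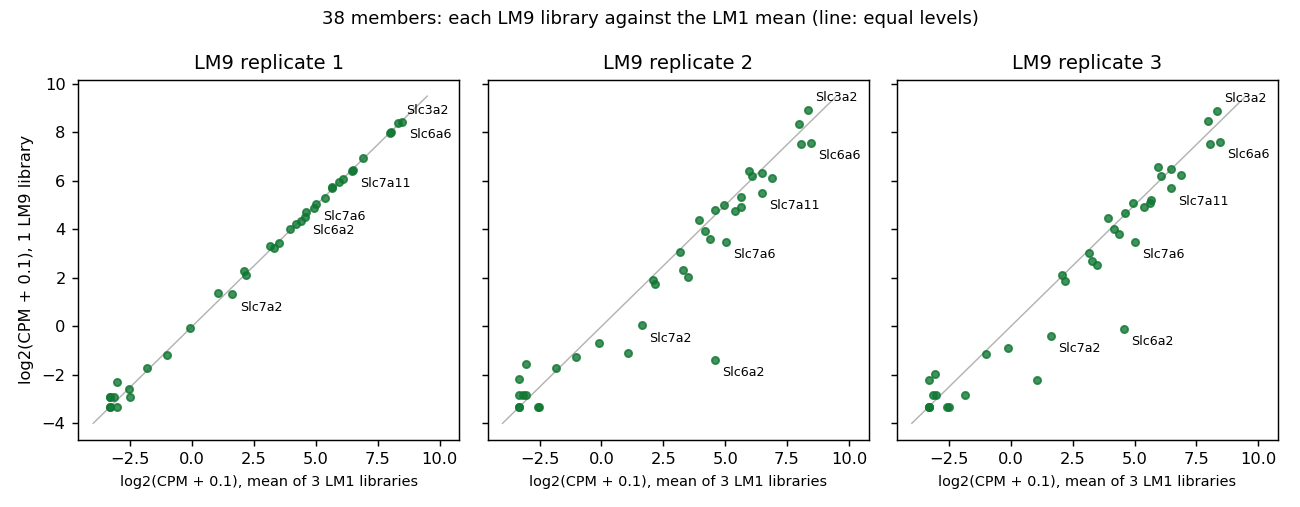
Each panel sets 1 LM9 library on the y axis against the mean of the 3 LM1 libraries on the x axis, both as log2 of CPM plus 0.1, with 1 point for each of the 38 members and a line at equal levels. The points of LM9 replicate 1 follow the line, and in replicates 2 and 3 Slc6a2, Slc7a2, Slc7a6, Slc7a11 and Slc6a6 lie below it and Slc3a2 above it.

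The difference of the KO-label contrast between the lines was called for none of the 38 (0% of all genes) with all libraries. There 15 members had an unadjusted p under 0.05, and so had 4495 of all 18176 genes tested. Without LM9 replicate 1 the difference was called for 21 members, against 57.2% of all genes. In that fit 29 members were higher and 8 lower in LM9KO than in LM9 (47.7% and 41.2% of all genes), and 12 rather than 9 were lower in LM1KO than in LM1. The parental libraries enter both the comparison of LM1 with LM9 and this difference.

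The wider amino acid machinery was described by 4 further lists, whose shares of called genes are to be read against those of all genes tested, 43.1% higher and 38.1% lower in LM1KO and 44.3% and 38.0% in LM9KO. Of 16 other carriers of amino acids, peptides and transmitters, 9 were higher and 6 lower in LM1KO (56.2% and 37.5%), and 8 and 7 in LM9KO (50% and 43.8%), with median log2 fold changes of 0.69 and 0.56. Pqlc2, which exports cationic amino acids from lysosomes (log2 fold changes 2.49 and 2.84 in LM1KO and LM9KO), and Slc16a10, an aromatic amino acid uniporter (1.96 and 1.92), rose, while the peptide carriers Slc15a2 (32 to 75 reads in a parental library and at most 4 in a KO-labelled one) and Slc15a3 (132 to 168 and at most 6) fell.

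Of 29 gene records of the amino acid response and of carrier partners, 16 were higher and 11 lower in LM1KO (55.2% and 37.9%) and 14 and 10 in LM9KO (48.3% and 34.5%). The median log2 fold changes were 0.60 and 0.14, the latter next to 0.13 for all genes. Atf4, the transcription factor of this response, had log2 fold changes of 1.74 and 1.25, and rose in both lines. The lipoprotein receptor gene Vldlr had at most 4 reads in a parental library and 1526 to 1619 in a KO-labelled one. Txnip, an arrestin that limits glucose uptake, fell by 7.35 and 7.29 on the log2 scale. Eif2ak4, the Gcn2 kinase, was at -0.61 and 0.068, lower in LM1KO and not past the threshold in LM9KO (adjusted p = 0.021 and 0.79). Its CPM was 40.7, 17.4 and 21.1 in LM9 and 27.4, 25.5 and 25.7 in LM9KO, so LM9 replicate 1 lay above every LM9KO library and the other LM9 libraries below every one, the opposite direction to LM1KO.

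Of 37 genes of mTORC1 amino acid sensing, 18 were higher and 11 lower in LM1KO (48.6% and 29.7%) and 21 and 10 in LM9KO (56.8% and 27%), with medians of 0.12 and 0.53. Rragd, a Rag GTPase that docks mTORC1 on lysosomes, had at most 11 reads in a parental library and 3184 to 3535 in a KO-labelled one. Lars, the leucyl-tRNA synthetase, had log2 fold changes of 2.83 and 2.87. Relatives of 1 kind went different ways. Of the sestrins, Sesn3 (-4.85 and -4.12) and Sesn1 (-1.22 and -0.50) fell and Sesn2 (2.28 and 2.31) rose. The CPM of Sesn1 was 54.1, 27.4 and 28.8 in LM9 and 24.4, 25.2 and 25.5 in LM9KO. The size of its fall in LM9KO thus leans on LM9 replicate 1. Of the subunits of the inhibitory GATOR1 complex, Nprl2 (-2.87 and -2.59) fell, Nprl3 (0.99 and 1.17) rose and Depdc5 (-0.28 and 0.29) did not pass the test.

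Of 49 enzymes of amino acid and transmitter metabolism, 28 were higher and 13 lower in LM1KO (57.1% and 26.5%) and 26 and 12 in LM9KO (53.1% and 24.5%), with medians of 0.67 and 0.60. Bcat1, which transaminates the branched-chain amino acids imported by Slc7a5, had at most 4 reads in a parental library and 7599 to 8309 in a KO-labelled one. Gatm, the first enzyme of creatine synthesis, which makes the precursor of the substrate of Slc6a8, had at most 1 read and 470 to 597. Nos2, which consumes arginine, the substrate of Slc7a1 and Slc7a2, fell, with 12338 to 14143 reads in a parental library and 8 to 28 in a KO-labelled one. Without LM9 replicate 1 the LM9KO counts of the 4 lists were 8 and 7, 15 and 12, 23 and 10, and 27 and 13, where 47.7% of all genes were higher and 41.2% lower. No difference between a list and all genes was tested. In no parental library did Vldlr, Bcat1 or Gatm reach 8 counts. They could enter the files through the KO-labelled libraries alone and had to be higher there. The counts of the 4 lists include such genes and were not split by this.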

How the data were processed

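The authors deposited raw read counts per gene, 1 file per library. Per the labels and the study's methods, poly-A RNA was sequenced as stranded single-end libraries, aligned with STAR to mm10, and read 5′ ends were counted with QuasR over the union of exons. Multi-mapper handling and the strand setting are not given in the sources used here. The files held 18278 genes, each with at least 8 counts in its third-highest library, 18268 of which matched GENCODE M21. Low genes had thus been removed before deposit.

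Counts of the 12 libraries were fitted with limma-voom 3.58.1 in R 4.3.3, with 1 mean per group and TMM factors from edgeR 4.0.16, after filterByExpr (minimum count 10, total 15). Benjamini-Hochberg adjustment ran over all 18176 genes tested, at 0.05, and every adjusted p in the report is from this fit unless another tool is named. Tests are two-sided. Levels are TMM-scaled CPM, and genes are compared with each other only as CPM per kb of exon union. Where all libraries of a group had 0 counts, the fold is a bound against a floor of 3 counts per library, and with 1 to 3 counts a ratio of pooled counts is given. Floors and intervals cover counting error only. Alternatives were edgeR's quasi-likelihood test, DESeq2 1.42.0, median-ratio or total-count scaling, other filters and error models, a replicate block, and leaving out each library. In simulated LM1 and LM1KO counts of 17600 genes, 200 of them shifted by 1 on the log2 scale, the fit called 199 of these and 5 others. The simulated counts had a dispersion (spread beyond sampling noise) of 0.01. They had far fewer changed genes than were called here, and no library that stood apart. These figures therefore do not give the error rate of the real fits.

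Values are given for members with well known roles, for the largest rise and fall of each family among members called in both lines at 5 CPM or more, for members near 0 in 1 kind of group, and for members called between lines. Slc6a2, Slc7a11, Slc36a4 and the remaining low members are described beyond that rule, after their values were seen. The members and lists were chosen with earlier results of these data known. Promoter windows are from RefSeq (GRCm38.p6).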

Additional observations from a re-analysis of the deposited data

Results flagged for a closer look

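For 5 members the KO-label contrast had opposite signs in the 2 lines, and the difference itself passed the test (interaction term, limma-voom, adjusted over all genes) once LM9 replicate 1 was left out. In that fit 57.2% of all genes passed the test of the difference. The differences, LM1 line minus LM9 line on the log2 scale, were -0.29 for Slc1a4 (adjusted p = 0.00256), -1.22 for Slc36a4 (adjusted p = 2.98e-06), -5.52 for Slc6a2 (adjusted p = 1.35e-09), -0.87 for Slc6a6 (adjusted p = 7.00e-11) and -0.90 for Slc7a11 (adjusted p = 6.52e-07). All 5 were negative in LM1KO against LM1 and positive in LM9KO against LM9. No member was called between LM1KO and LM9KO, so each difference is close to that of LM1 over LM9 with the sign turned. In the same fit LM1 over LM9 was 0.36 for Slc1a4, 1.23 for Slc36a4, 5.55 for Slc6a2, 0.87 for Slc6a6 and 0.88 for Slc7a11. It is thus no result separate from the comparison of the parental lines. With all 12 libraries none passed the test, at adjusted p = 0.546 for Slc1a4 and 0.202 for each of the others. The values of Slc1a4 (0.14) and Slc6a6 (0.12) in LM9KO lie near the median of all genes in that fit, 0.16. The chi-square per gene between LM9 replicate 1 and the other LM9 libraries was 145 and 129, against 1.42 to 10.7 for every other pair of libraries within a group. Its resemblance to LM1 was found in these data and is not given by the labels.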

How the results depend on the processing

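Among the log2 fold changes of the 38 members, 33 in LM1KO and 30 in LM9KO had the same sign and call in every alternative run. Requiring a mean of at least 5 CPM, which left 24 members, gave 15 higher and 5 lower in LM1KO and 14 higher and 4 lower in LM9KO. In LM9KO 5 were lower when only LM9 and LM9KO were fitted, and 5 with an absolute log2 fold change above 1. Between LM1 and LM9, counts higher and lower in LM1 were 8 and 5 with DESeq2, 13 and 2 with total counts, 10 and 3 with a mean of at least 5 CPM and 17 and 7 with sample quality weights. Leaving out 1 library gave 0 to 18 and 0 to 7, all calls coming without LM9 replicate 1. The difference between lines was called for 23 members with quality weights and for 0 to 21 on leaving out 1 library. For LM1 against LM9 and this difference, the share of all genes is given only for the main fit and without LM9 replicate 1. The other counts describe the members only.

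Signs reversed for 4 members. Slc1a4 was 0.062 in LM1KO and 0.33 in LM9KO with total counts, 0.14 in LM9KO with quality weights, and -0.13 to 0.14 in LM9KO on leaving out 1 library. Slc38a10 was 0.0063 (DESeq2), 0.0080 (median-ratio factors) and 0.21 (total counts) in LM1KO, from -0.037 to 0.042 on leaving out 1 library, and 0.031 in LM9KO with total counts. Slc6a6 in LM9KO was 0.19 with total counts, 0.10 with quality weights and -0.32 to 0.12 on leaving out 1 library. Slc6a2 in LM9KO was -1.67 with edgeR and -0.92 to 2.31 on leaving out 1 library. Total counts moved the median of all genes from 0.084 to 0.31 in LM1KO and from 0.13 to 0.49 in LM9KO. Apart from leaving out a library, the cause was not tested. Samples of the same replicate number did not deviate together (r from -0.160 to 0.0903). These are deviations from means of 3 libraries, and LM9 replicate 1 lay far from its group. They cannot settle whether the replicate numbers mark shared cultures. With the number as a replicate block, counts of calls were the same (25 and 9, 24 and 8), and Slc6a2 in LM9KO was -0.42. Genes under about 1 CPM rest on few reads, and their fitted folds depend on the offset.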
